A study of Mus musculus with 4 samples.

Results

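The 8 genes described here are markers of endothelial tip cells and of vessel sprouting: Esm1, the apelin pair Apln and Aplnr, Cxcr4, Plaur, Cd34, Mcam and Kcne3. They were chosen by symbol, and each symbol stood on 1 line of the count tables, so the group holds 8 of 23282 entries. The vessel-lining endothelial cells (ECs) had been isolated from the dura mater, the tough outermost sheet of the meninges, or from the brain parenchyma. All mice were C57BL/6J, 8 weeks old, with no injury, treatment or transgene named in the labels, and 2 libraries were made from each tissue. Cells were sorted as positive for CD31 and negative for CD45 and TER-119, and brain ECs had first been enriched with magnetic beads, a step not described for the dura mater. RNA was read from its 3′ ends, and the libraries held 13518973 to 16096203 counts. The study compared the sprouting of these cells in culture and asked how their expression differs.

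When a vessel sprouts, a leading tip cell extends filopodia towards VEGF, while stalk cells behind it form the tube. Delta-Notch signalling between neighbours decides which cell leads. Tip cells of the growing retina are known for high Esm1, Apln, Cxcr4, Plaur and Kcne3, and CD34 marks tip cells in culture, whereas the apelin receptor Aplnr is found mainly on stalk cells and veins. Bulk RNA gives 1 value per library, so fewer cells of a type and less RNA per cell cannot be told apart.

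Of the 8 genes, 4 were present in both dura mater libraries and at or near 0 in both brain libraries: Esm1, Aplnr, Cxcr4 and Plaur. Mcam was present in all 4 libraries and higher in dura mater ECs, Cd34 was high in all 4 with the tissues overlapping, and Apln and Kcne3 were counted in 1 dura mater library each. In edgeR's quasi-likelihood test 0 of the 6 genes that passed the filter on low counts differed at an adjusted p under 0.05, against 0.61% of the 9347 genes tested and 0.428% in the higher direction (40 higher and 17 lower in dura mater ECs). At an unadjusted p under 0.05, 3 of them were higher, Esm1, Aplnr and Cxcr4, where 7.04% of all genes tested were. DESeq2 called 4 of the 6 higher (Esm1, Aplnr, Cxcr4 and Plaur), where it called 6.9% of all genes higher, 2.11% lower and 9.02% in either direction. limma-voom called 0 of the 6, with 0.428% of all genes higher. The newer dispersion estimate of edgeR called 0 as well, with 1.94% of all genes higher, and edgeR without a filter on low counts called Esm1 alone, with 1.43% of all genes higher. Scaling by pan-endothelial genes changed the split over all genes to 46 higher and 9 lower (83.6% higher, against 70.2%), while limma-voom called 40 in each direction and edgeR on genes with at least 10 counts in every library 75 higher and 66 lower (53.2% higher).

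**Figure D1:**
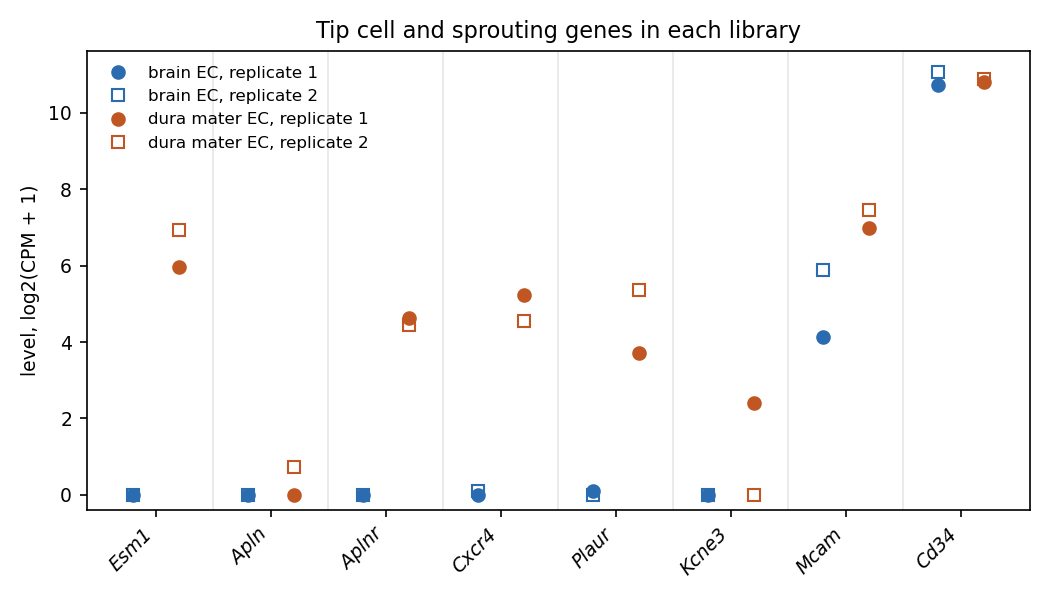
Level of each of the 8 genes in each library, as log2(CPM + 1), where CPM is the depth-scaled count. Blue marks brain ECs and orange dura mater ECs, filled circles are replicate 1 and open squares replicate 2; Esm1, Aplnr, Cxcr4 and Plaur sat at or near 0 in both brain libraries and above it in both dura mater libraries, the tissues overlapped for Cd34, and levels are meant to be compared within a gene.

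The labelled cell type was checked first against pan-endothelial genes. All 10 of them were counted in every library, and their summed level was 8931 and 12020 CPM in brain ECs against 7973 and 10611 CPM in the dura mater, so the groups overlapped. Their most counted members were Esam and Egfl7, junction and matrix genes of ECs, with log2 fold changes of −0.83 and −0.66 and edgeR adjusted p of 0.432 and 0.564, and Esam passed in DESeq2. Of the 10 genes, 6 had a positive and 4 a negative log2 fold change (median 0.52), and 0 passed in edgeR. The tissues did not overlap for 5 in the higher direction and 3 in the lower one, where 26.2% and 16.9% of all genes tested did so. The 8 blood-brain barrier genes were lower in dura mater ECs without overlap, 5 of them past the edgeR threshold (Slc2a1, Tfrc, Mfsd2a, Slco1a4 and Cldn5, the last of them outside the rule for named genes). Among all genes tested, 16.9% were lower without overlap and 0.182% were called lower in edgeR. Replicates differed widely. Of the entries with at least 64 counts in 1 of the brain libraries, 31.3% had 7 or fewer in the other, and the share was 30.7% for the dura mater libraries.

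Esm1 encodes endocan, a proteoglycan that ECs secrete and a classical marker of tip cells. It is a gene that the study took up from these libraries, so its level here is no independent evidence. The gene (ENSMUSG00000042379.8, GRCm38 chromosome 13, 113209659 to 113218098, plus strand) was not counted in either brain library and had 824 and 1985 counts in dura mater replicates 1 and 2. These counts corresponded to 61.4 and 122 CPM, or 91.5 ± 42.5 CPM (SD, n = 2). Both dura mater libraries were thus above both brain libraries, and replicate 2 was 1.98 times replicate 1 (95% counting interval 1.82 to 2.15). A count of 0 allows up to 3 counts, or 0.207 and 0.227 CPM in the brain libraries. Against the larger of these floors the mean dura mater level of Esm1 was 404-fold higher, a figure that covers counting error alone. Its fitted log2 fold change of 9.36 (SE 1.82) depends on the prior count, and its edgeR adjusted p was 0.172. Over the alternatives the adjusted p ran from 6.8e-08 in DESeq2 on all entries to 0.686 without dura mater replicate 2. It passed in 3 of 16 alternatives, the 2 DESeq2 fits and edgeR without a filter on low counts (adjusted p 0.0019).

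The receptor for apelin, Aplnr, is a G protein-coupled receptor that is strong in venous ECs and in the stalk of sprouts. Aplnr (ENSMUSG00000044338.9, GRCm38 chromosome 2, 85136225 to 85139923, plus strand) was at 0 counts in each brain library too, and reached 317 and 341 counts in the dura mater, or 23.6 and 20.9 CPM. The dura mater replicates lay close together, with a ratio of 0.884 whose counting interval of 0.756 to 1.03 includes equality. Its mean dura mater level was 98.2-fold higher than the same floor, again by counting error alone (edgeR adjusted p 0.466). It passed in both DESeq2 fits (0.0313 on the filtered genes) and in none of the other alternatives, over which the adjusted p ran from 0.00913 to 1.00. Its ligand Apln (ENSMUSG00000037010.7, GRCm38 chromosome X, 48025146 to 48034853, minus strand), a secreted peptide that tip cells make, had 0, 0 and 0 counts and then 11 counts in dura mater replicate 2. Those 11 counts were 0.674 CPM, with a counting interval of 0.336 to 1.21 CPM, and 0 counts in dura mater replicate 1 allowed up to 0.224 CPM. Apela, the other known ligand of this receptor, had 0 counts in all 4 libraries. The receptor was therefore counted in both dura mater libraries, while its ligands were at or near the limit of detection in sorted ECs of either tissue.

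CXCR4 is the receptor of the chemokine CXCL12 and guides migrating ECs as well as many leukocytes. Cxcr4 (ENSMUSG00000045382.6, GRCm38 chromosome 1, 128588199 to 128592293, minus strand) had 0 and 1 counts in brain ECs against 487 and 368 in the dura mater, or 36.3 and 22.5 CPM. Groups did not overlap, and replicate 2 of the dura mater was lower than replicate 1 (ratio 0.621, counting interval 0.541 to 0.712). Summed over libraries the ratio of dura mater to brain was 797, with a counting interval of 143 to 31522 that covers counting error alone. The edgeR adjusted p was 0.466 and that of DESeq2 was 0.0181, with a range of 0.00324 to 1.00 over the alternatives.

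The ligand Cxcl12 went the other way. It had 133400 and 89861 counts in brain ECs against 23480 and 27762 in the dura mater, and fell (on the log2 scale −2.21, SE 0.27, with an adjusted p of 0.0286 in edgeR). Its adjusted p was under 0.05 in 12 of 17 alternatives, and above it under pan-endothelial scaling and whenever 1 library was left out, while the sign was the same in all 17. Ackr3, which binds and clears CXCL12, had 4501 and 1928 counts against 589 and 1238, with no overlap. Its log2 fold change of −1.93 (SE 0.70) missed the edgeR threshold (adjusted p 0.466). The receptor with a signalling role was thus counted almost only in dura mater libraries, and both its ligand and its scavenger receptor were higher in brain libraries.

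PLAUR, the urokinase receptor, holds the protease urokinase at the cell surface, where it opens matrix ahead of a migrating cell. Plaur (ENSMUSG00000046223.10, GRCm38 chromosome 7, 24462484 to 24475968, plus strand) had 1 and 0 counts in brain ECs against 164 and 658 in the dura mater, or 12.2 and 40.3 CPM. The tissues did not overlap, although dura mater replicate 2 was 3.30 times replicate 1 (counting interval 2.77 to 3.93). The ratio of summed counts was 766 (137 to 30306, counting error alone), with an edgeR adjusted p of 0.466 and a DESeq2 adjusted p of 0.0349 (0.0083 to 1.00 over the alternatives). Plau, which encodes urokinase itself, had 0 and 1 counts in brain ECs, 0 in dura mater replicate 1 and 87 in replicate 2, the library in which Plaur was higher.

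Of the rest of the urokinase system, 0 of the 5 tested genes passed in edgeR, 0 of them also at an unadjusted p under 0.05, and 0 in DESeq2. Plat, the tissue plasminogen activator, had 3787 and 729 counts against 1398 and 1625, and the inhibitor Serpine2 had 1835 and 485 against 1134 and 1159. The clearance receptor Lrp1 (1249 and 106 against 512 and 1554 counts) and vitronectin, Vtn (234 and 0 against 420 and 77), overlapped too, and Plg had 0 counts throughout.

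**Figure D2:**
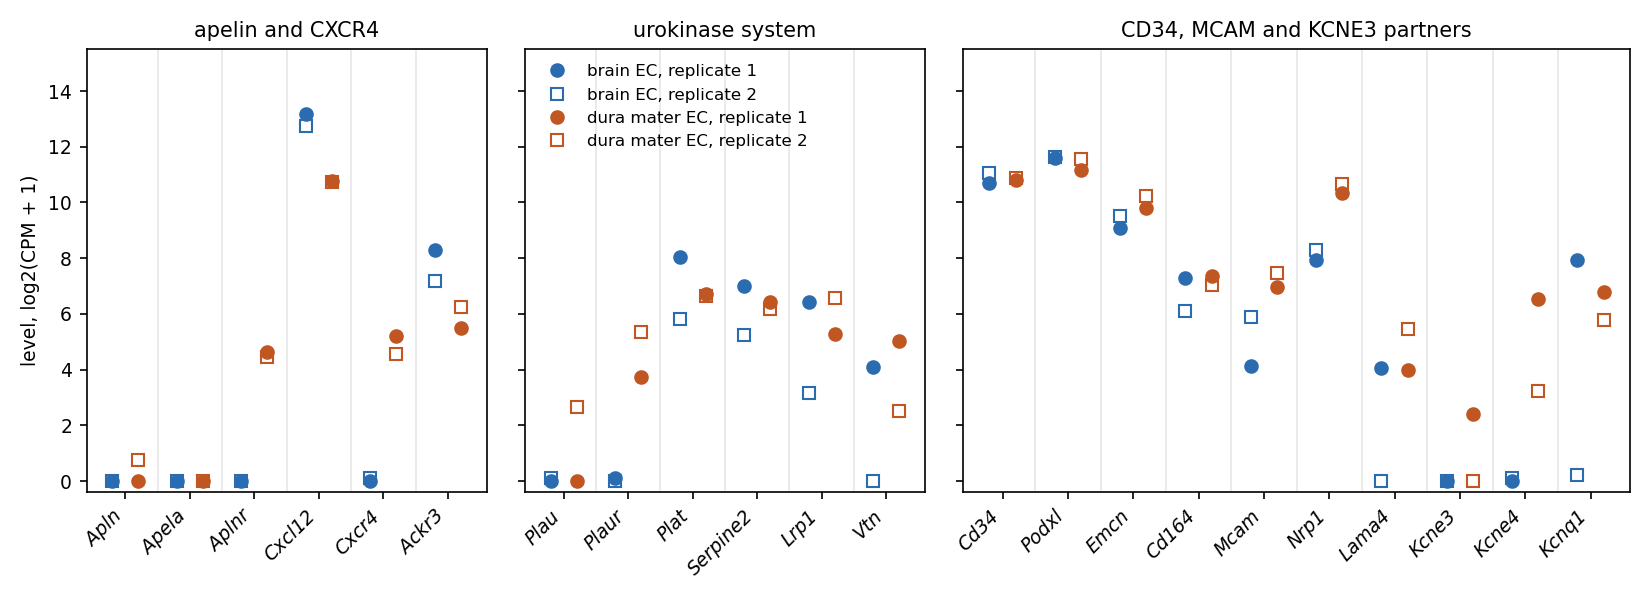
Levels, as log2(CPM + 1), of the sprouting genes and of the genes that act with them, in 3 panels, with the symbols and colours of the libraries as in the legend. Cxcr4 lay higher and Cxcl12 and Ackr3 lower in both dura mater libraries, Apela lay at 0 in all 4, and most genes of the urokinase system overlapped between the tissues.

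Over all genes, the pattern of at most 7 counts in each brain library with at least 64 in each dura mater library, set after the values were seen, was found for 761 entries, or 3.27% of all entries and 8.14% of the genes tested. Among the 8 sprouting genes, 4 had it. The tissues did not overlap for 5 of the 8 (these 4 and Mcam), each higher in dura mater ECs, where 26.2% of all genes tested did so in that direction. The filter on low counts keeps a gene at 0 in brain ECs because of its dura mater counts, so the share among tested genes is given as a description.

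**Figure D3:**
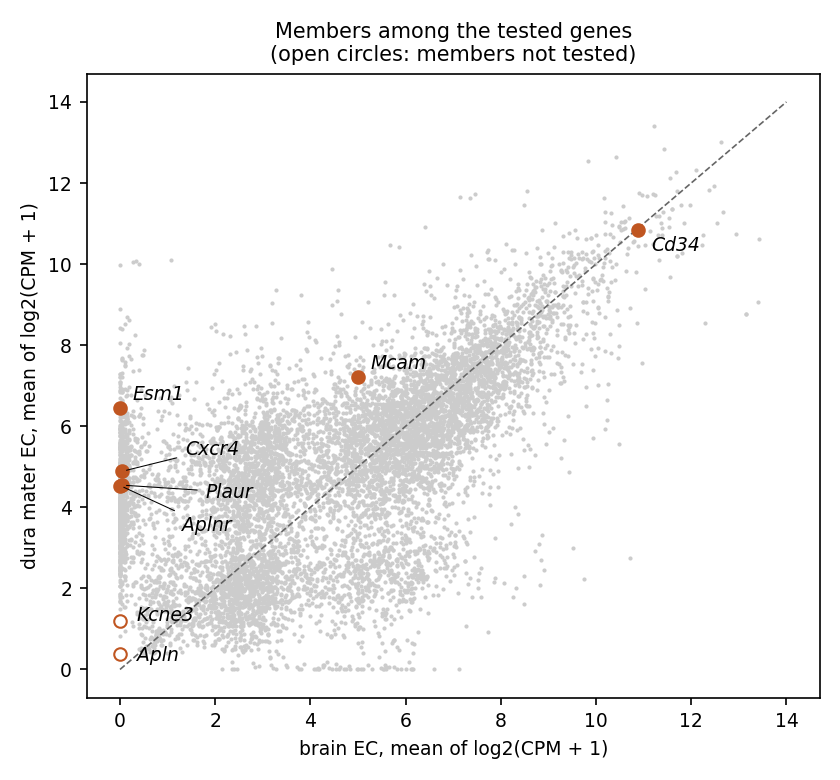
Mean log2(CPM + 1) in brain ECs (horizontal axis) and dura mater ECs (vertical axis) for the 9347 genes tested in grey, with the sprouting genes in orange, open where they did not pass the filter. Esm1, Cxcr4, Plaur and Aplnr lie on the left edge at 0 or nearly 0 in brain ECs, together with many other genes, Mcam lies above the dashed line of equal level, and Cd34 lies on it near the upper end.

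The 250 bases before the start of 3 of the genes at or near 0 in brain ECs, and of Cd34, whose levels overlapped between the tissues, are shown so that their promoters can be read beside these values. They are from RefSeq (GRCm38.p6), 5′ to 3′ on the strand of the gene, and capitals mark matches to the motifs named below. The windows are chr13:113209409-113209658 (plus) for Esm1, chr1:128592300-128592549 (minus) for Cxcr4, chr7:24462233-24462482 (plus) for Plaur and chr1:194938571-194938820 (plus) for Cd34.
Esm1: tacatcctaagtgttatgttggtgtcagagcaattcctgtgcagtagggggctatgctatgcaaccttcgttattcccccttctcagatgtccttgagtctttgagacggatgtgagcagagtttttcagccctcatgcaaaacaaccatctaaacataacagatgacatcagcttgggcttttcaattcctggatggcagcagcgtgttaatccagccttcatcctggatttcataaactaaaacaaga
Cxcr4: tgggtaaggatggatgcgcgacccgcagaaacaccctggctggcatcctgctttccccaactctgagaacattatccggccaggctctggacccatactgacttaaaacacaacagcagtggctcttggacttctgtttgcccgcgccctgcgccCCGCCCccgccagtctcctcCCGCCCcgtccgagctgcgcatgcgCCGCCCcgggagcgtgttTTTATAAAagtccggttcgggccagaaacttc
Plaur: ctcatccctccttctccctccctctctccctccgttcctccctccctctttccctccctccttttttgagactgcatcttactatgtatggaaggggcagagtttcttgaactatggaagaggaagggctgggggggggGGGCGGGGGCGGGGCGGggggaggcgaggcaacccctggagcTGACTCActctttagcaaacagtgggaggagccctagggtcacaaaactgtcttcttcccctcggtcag
Cd34: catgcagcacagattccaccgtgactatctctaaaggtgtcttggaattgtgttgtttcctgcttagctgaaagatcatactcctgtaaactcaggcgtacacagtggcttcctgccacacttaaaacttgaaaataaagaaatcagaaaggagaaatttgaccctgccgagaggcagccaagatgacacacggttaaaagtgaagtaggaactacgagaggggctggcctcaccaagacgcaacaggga
Of the 8 genes, 7 had an entry among the 32851 promoters. These were searched on both strands for the AP-1 site TGANTCA (in 6.75% of all promoters), the hypoxia response core ACGTG (16.6%), the GC box GGGCGG (32.7%), the ETS site CCGGAAG (6.91%), the GATA site AGATAA (9.99%), the TATA box TATAAA (12.4%) and the SOX and TCF site AACAAAG (5.03%). Plaur held an AP-1 match 69 bases before its start and 3 GC boxes that adjoin or overlap. Cxcr4 held 3 GC boxes and a TATA box at 30 bases before its start that overlaps its own match on the other strand. Neither Esm1 nor Cd34 held any of the 7. Among the genes whose windows are not shown, Kcne3 held an AP-1 match 37 bases before its start, the hypoxia core and, before another start, GC boxes. Mcam held GC boxes, and Apln held a GC box and a SOX and TCF match. Of the 8 promoter entries of the 7 genes, 2 held an AP-1 match and 5 a GC box. G and C made up 44.0% of the Esm1 window and 46.4% of that of Cd34, against 61.2% for Cxcr4, 59.6% for Plaur and a median of 52.4% over all promoters. A match is a run of letters and not a measured site.

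MCAM (CD146) is an adhesion molecule of ECs and pericytes that also binds laminin and acts with VEGFR2. Mcam (ENSMUSG00000032135.15, GRCm38 chromosome 9, 44134469 to 44142727, plus strand) had 240 and 768 counts in brain ECs against 1666 and 2855 in the dura mater. In CPM these were 16.6 and 58.1 against 124 and 175, so the lowest dura mater library was above the highest brain library. Means ± SD (n = 2 each) were 37.3 ± 29.3 CPM for the brain and 150 ± 35.8 CPM for the dura mater, a log2 fold change of 2.00 (SE 0.95). It missed the threshold in edgeR (adjusted p 0.508) and in all 17 alternatives (0.230 to 1.00). The brain replicates differed more than the dura mater ones, 3.51 times (counting interval 3.03 to 4.07) against 1.41 times. Without brain replicate 1 the log2 fold change was 1.36 and without brain replicate 2 it was 3.16.

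Pericytes also express Mcam. The 12 mural cell genes had a summed level of 748 and 1178 CPM in brain ECs against 1215 and 707 CPM in the dura mater, so the tissues overlapped. The most counted of them were Acta2 and Myh11, smooth muscle genes, with 4979 and 10644 counts against 7580 and 3663 for Acta2. Of the 12 genes 11 were tested, 8 had a positive log2 fold change (median 1.23) and 0 passed in edgeR (1 at an unadjusted p under 0.05, and 1, Kcnj8, in DESeq2). Among all genes tested, 49.8% were positive, 7.04% were higher at an unadjusted p under 0.05 and 6.9% were higher in DESeq2. The tissues did not overlap for 4 that were higher in the dura mater (Kcnj8, Cspg4, Notch3 and Tagln) and 1 that was lower (Des), all but Kcnj8 named after their values were seen. Over all genes tested these shares were 26.2% and 16.9%. Kcnj8 had 0 and 0 counts against 468 and 410, and Cspg4, a marker of pericytes, had 0 and 1 against 263 and 65. The part of mural cells in the values of Mcam was not tested.

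Among the known partners of MCAM, Nrp1, a co-receptor for VEGF, had 3576 and 4107 counts in brain ECs against 17261 and 26517 in the dura mater. It gave a log2 fold change of 2.38 with SE 0.35, just outside the edgeR threshold (adjusted p 0.0544) and inside that of DESeq2. It was positive in all 17 alternatives and past the threshold in 8. Lama4, a laminin chain of vessel walls, had 228 and 0 against 197 and 703 counts, and the galectin Lgals1 had 38 and 666 against 82 and 72. Kdr, which encodes VEGFR2, had 8638 and 3601 against 10372 and 8335 counts. These 3 overlapped between the tissues.

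CD34, a sialomucin on the luminal face of ECs and on tip cell filopodia, was abundant in every library. Cd34 (ENSMUSG00000016494.9, GRCm38 chromosome 1, 194938819 to 194961279, plus strand) had 24294 and 28291 counts in brain ECs against 23746 and 30565 in the dura mater. In CPM these were 1676 and 2139 against 1771 and 1872, and both dura mater libraries lay between the brain libraries. The means were 1907 ± 327 and 1821 ± 71.8 CPM (SD, n = 2). The log2 fold change of −0.066, with SE 0.28, was smaller than its error (adjusted p 1.00 in edgeR), and its sign turned under upper-quartile and pan-endothelial scaling and without brain replicate 2. In upper-quartile scaling the median of all genes itself moved by 0.14, and in pan-endothelial scaling by 0.17, more than the value of Cd34.

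Related sialomucins were abundant as well. Podxl, the relative of CD34 on ECs, had 44592 and 41614 counts in brain ECs against 30965 and 48858 in the dura mater (log2 fold change −0.23, SE 0.27). Emcn, endomucin, had 7792 and 9720 against 12038 and 19829 (0.73, SE 0.35), and Cd164 had 2281 and 896 against 2173 and 2145 (0.38, SE 0.70). All 3 had edgeR adjusted p from 0.516 to 1.00. Podxl2 had 0 counts. Fibroblasts of connective tissue express Cd34 too, and the 10 fibroblast genes summed to 2565 and 2270 CPM in brain ECs against 11331 and 11296 CPM in dura mater ECs. Most of that sum was Mgp, with 36701 and 29352 against 146993 and 178439 counts (log2 fold change 2.20, SE 0.24, edgeR adjusted p 0.0248). Of the 10, 6 were tested and 5 of them were higher without overlap, as were 26.2% of all genes tested. Among all genes tested, 0.428% were called higher in edgeR, 7.04% were higher at an unadjusted p under 0.05 and 6.9% in DESeq2. Of the 6 fibroblast genes, 1 passed in edgeR (3 at an unadjusted p under 0.05) and 4 in DESeq2. Among these Dcn, a matrix proteoglycan, had 16 and 15 counts against 1184 and 1664, and Col1a2, a chain of collagen I, had 4 and 31 against 1135 and 1913. The defining marker Pdgfra had 1, 1, 0 and 1 counts. These 3 genes, like the defining markers of other cell types named outside the rule, were picked after their values were seen, and the part of fibroblasts in the values of Cd34 was not tested.

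KCNE3 is a small accessory subunit of voltage-gated potassium channels. Kcne3 (ENSMUSG00000035165.14, GRCm38 chromosome 7, 100176502 to 100184869, plus strand) was at 0 counts in each brain library, 57 in dura mater replicate 1 and 0 in replicate 2. The 57 counts were 4.25 CPM (counting interval 3.22 to 5.51), whereas 0 counts in replicate 2 allowed up to 0.184 CPM, so the dura mater replicates differed beyond counting error. Neither Kcne3 nor Apln passed the filter on low counts. In edgeR without that filter their adjusted p were 0.793 and 0.798.

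Kcne2 and Kcne4, of the same family, were also counted mostly in dura mater replicate 1. Kcne2 had 0 and 1 counts in brain ECs, 628 in dura mater replicate 1 and 0 in replicate 2, and Kcne4 had 0 and 1 against 1227 and 136. Kcne4 was not past the edgeR threshold (adjusted p 0.461) and passed in DESeq2. Kcne1 had 1 count, also in dura mater replicate 1, and Kcne5, listed under its older symbol Kcne1l, had 0 counts throughout. Among the channel subunits that KCNE3 can join, Kcnq1 had 3532 and 2 counts in brain ECs against 1454 and 880 in the dura mater, and Kcnc4 had 1 count, in brain replicate 2.

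Other markers of tip cells were read in a list of 18 genes, all of them tested. In edgeR 1 was higher and 1 lower in dura mater ECs, where 0.428% and 0.182% of all genes tested were. At an unadjusted p under 0.05 there were 2 higher and 1 lower, against 7.04% higher and 10% in either direction over all genes. DESeq2 called 3 higher and 1 lower, where it called 6.9% and 2.11% of all genes. A positive log2 fold change was found for 14 of the 18, against 49.8% of all genes tested, and the list's median was 0.96 against −0.0067 for all genes. The tissues did not overlap for 10 in the higher direction and 2 in the lower one, where 26.2% and 16.9% of all genes tested did so. The list and the 8 genes were chosen with results of these libraries known, and no test of the list was made.

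Fscn1, which bundles actin in filopodia, was the gene that rose. It had 3 and 2 counts in brain ECs against 2482 and 3533 in the dura mater, a ratio of summed counts of 1122 (480 to 3456, counting error alone) and an edgeR adjusted p of 0.0248. With any 1 of the 4 libraries left out it missed the threshold, with adjusted p up to 0.150, and in limma-voom too (0.0907). Igf1r, the receptor for insulin-like growth factor 1, was the gene that fell, from 27453 and 28245 counts in brain ECs to 3045 and 2570 in those of the dura mater (log2 fold change −3.39 with SE 0.36, adjusted p 0.0248 in edgeR). It was past the threshold in 13 of 17 alternatives, 1 of the 4 that leave out a library among them.

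Stalk and phalanx genes, which mark the cells behind the tip and the quiescent vessel, were read beside them. Of 12 listed, 11 were tested, 0 passed in edgeR, 2 were higher at an unadjusted p under 0.05 and 1, Vwf, passed in DESeq2. Over all genes tested, 0.61% passed in edgeR, 7.04% were higher at an unadjusted p under 0.05 and 6.9% were higher in DESeq2. The median log2 fold change of the list was 0.35, and 7 of the 11 were positive, against 49.8% of all genes tested. The tissues did not overlap for 5 in the higher and 4 in the lower direction, where 26.2% and 16.9% of all genes tested did so. Tie1, a receptor of the angiopoietin system, had 9116 and 10643 counts in brain ECs against 12476 and 27616 in the dura mater (edgeR adjusted p 0.482). Flt1, the decoy receptor for VEGF, had 13777 and 14248 against 9880 and 12363 (edgeR adjusted p 0.792). A difference between the tip and stalk lists was not tested.

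**Figure D4:**
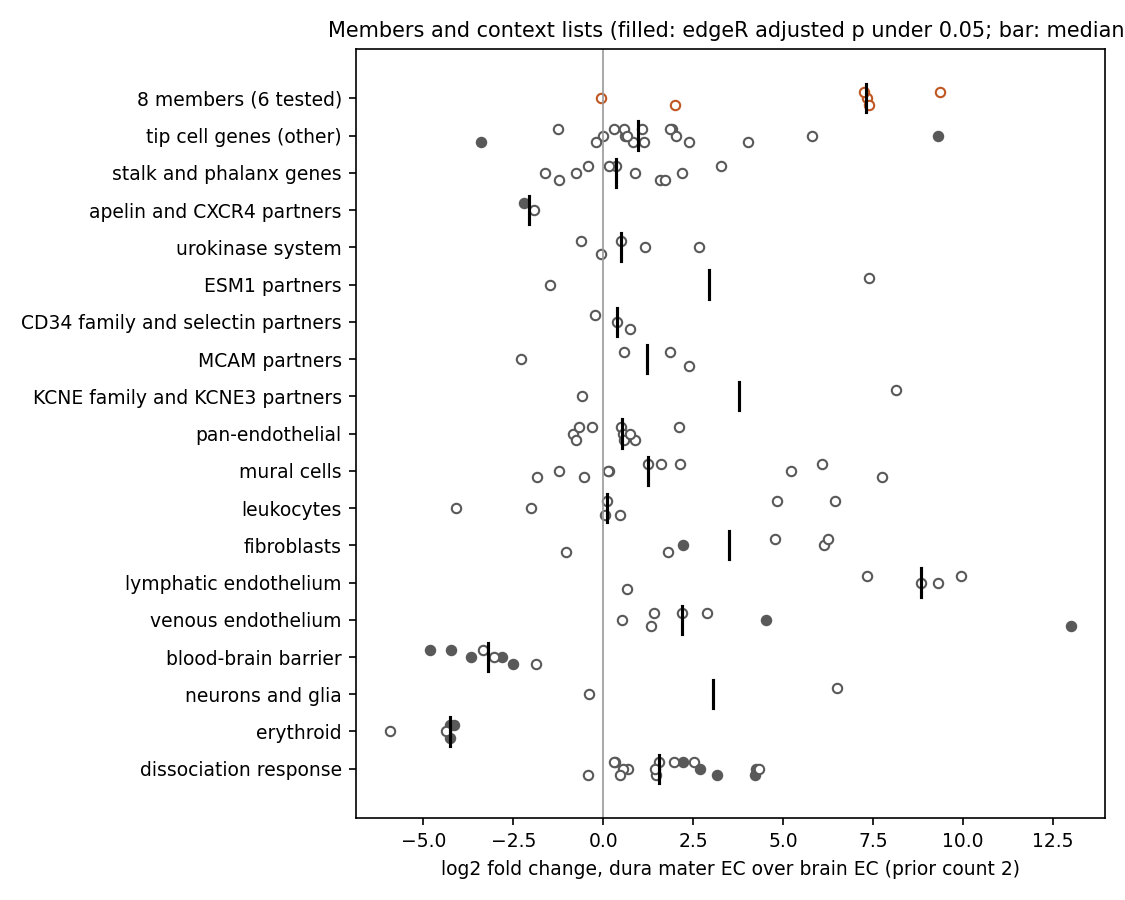
Log2 fold change (dura mater ECs over brain ECs, prior count of 2) of the 6 tested sprouting genes in the top row and of the tested genes of each context list below it. Each point is a gene, filled where the edgeR adjusted p was under 0.05, and the black bar is the median; the sprouting genes have open points with 4 of them beyond 7, and the blood-brain barrier and erythroid lists lie left of 0.

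ESM1 is known to bind fibronectin and to free VEGF from it. Vegfa had 4 and 5 counts in brain ECs against 1294 and 942 in the dura mater (ratio of sums 232, 122 to 507 by counting error, edgeR adjusted p 0.291) and passed in DESeq2. Fn1, fibronectin, had 16275 and 16103 against 4954 and 7672 counts (log2 fold change −1.48, SE 0.33, edgeR adjusted p 0.194), and it too passed in DESeq2, in the lower direction. The leukocyte integrin chains Itgb2 and Itgal, to which endocan also binds, had at most 2 counts in any library.

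Other cell types were read through their markers. Leukocytes express Cxcr4 and Plaur, and the 14 leukocyte genes summed to 97.9 and 57.5 CPM in brain ECs against 117 and 51.5 CPM in the dura mater, so the groups overlapped. Of these 14, 7 were tested and 0 passed in edgeR (0 at an unadjusted p under 0.05, and 1, Cd68, in DESeq2). Over all genes, DESeq2 called 6.9% higher. Ptprc, which encodes CD45, had 1, 3, 4 and 3 counts, and Cd3e had 0 in every library. The tissues did not overlap for 2 of the 7, both higher in the dura mater, where 26.2% of all genes tested did so. These were Cd68 and Fcer1g, the second with 6 and 17 counts against 610 and 173 and named after its values were seen. The most counted of the 14 were Laptm5 and Cd68. Laptm5 had 1377 and 12 against 204 and 133 counts and Cd68 had 4 and 3 against 550 and 441. The part of leukocytes in the values of Cxcr4 and Plaur was not tested.

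Lymphatic ECs carry CD31 as well. The 7 lymphatic genes summed to 123 and 145 CPM in brain ECs against 433 and 645 CPM in dura mater ECs, and 5 of the 5 tested were higher without overlap (0 past the edgeR threshold, 4 at an unadjusted p under 0.05, and 4 in DESeq2). Lyve1, Prox1, Ccl21a and Mmrn1 were at 0 counts in each brain library, Flt4, the most counted, had 1777 and 1905 against 2384 and 4018, and Ccl21a had 883 and 3378 in the dura mater ones. Pdpn (3 and 7 against 3 and 45 counts) and Reln (1 and 0 against 0 and 502) were not tested, and the tissues overlapped for both. Venous genes summed to 1320 and 920 CPM against 6738 and 5839 CPM, 7 of 7 without overlap and 2 past the edgeR threshold, Selp (0 and 0 against 22187 and 9995 counts) and Lrg1 (1419 and 960 against 22023 and 37171). Among all genes tested, 26.2% were higher without overlap and 7.04% were higher at an unadjusted p under 0.05. In edgeR 0.428% were called higher, and in DESeq2 6.9%. The lymphatic and venous lists moved with Esm1, Aplnr, Cxcr4 and Plaur, and their part in those values was not tested.

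The genes that cells switch on during tissue handling moved in the same direction. The 17 genes of the dissociation response summed to 11662 and 12923 CPM in brain ECs against 39214 and 39951 CPM in the dura mater. In edgeR 5 were higher and 0 lower, and the 4 with the smallest p were Egr1 (log2 fold change 4.22), Ier3 (2.69), Fosb (4.24) and Junb (2.21), and 16 of 17 had a positive value. Over all genes tested, 0.428% were called higher in edgeR and 49.8% had a positive value. Erythroid genes went down, from 18013 and 25692 CPM to 1496 and 762 CPM, with Hba-a1, Hbb-bs and Hbb-bt past the edgeR threshold (log2 fold changes −4.26, −4.27 and −4.15), and near-identical globin genes may share reads. Over all genes tested, edgeR called 0.182% lower. Of 10 genes of neurons and glia, 2 were tested and 0 passed in edgeR (0 at an unadjusted p under 0.05 and 0 in DESeq2). Mbp, a gene of myelin, had 1476 and 4 counts against 1027 and 6. Aqp4 and P2ry12 had 0 counts in all 4 libraries. The part of handling and of these cells in the values of the sprouting genes was not tested.

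The genes whose levels were most like each sprouting gene over the 4 libraries were found by the Euclidean distance of log2(CPM + 1). For Esm1 they were Lyve1 (0, 0, 911 and 1776 counts, distance 0.21) and Meox1 (0, 0, 944 and 1683, distance 0.30). For Aplnr they were Mex3b and P3h3 (both at 0.15), for Cxcr4 Igfbp6 (0.15) and Icam5 (0.18), and for Plaur Lrrc8d (0.24) and Setbp1 (0.31). All of these had 0 or 1 counts in each brain library. For Cd34 they were Klf2 (0.41) and Chchd2 (0.45), for Mcam Ypel2 (0.62) and Rpl36a (0.68), for Apln Rab27b (0.81) and Aldoart1 (0.90), and for Kcne3 Hist1h2ae (0.83) and Gm6524 (0.85). With 4 libraries in 2 tissues, many genes share such a pattern.

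**Figure D5:**
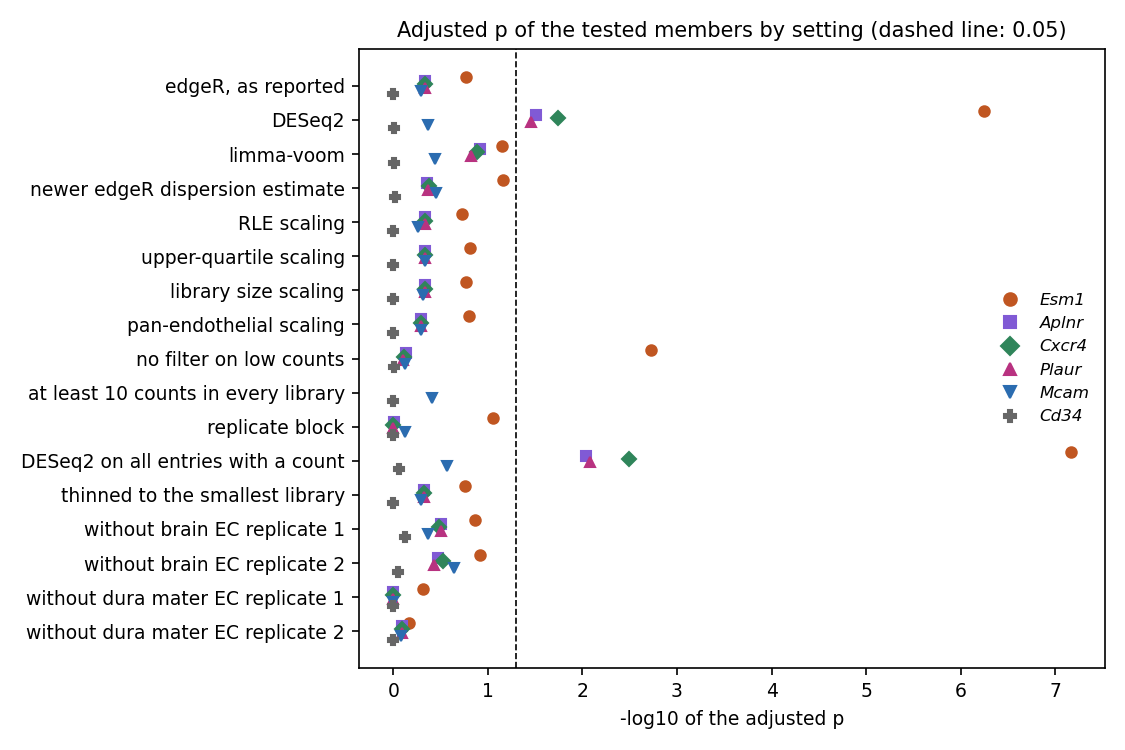
Adjusted p, as −log10, of the 6 tested sprouting genes under edgeR as reported and under each alternative, 1 row per setting, with the dashed line at 0.05. Esm1, Aplnr, Cxcr4 and Plaur lie right of the line in both DESeq2 fits, Esm1 also without a filter on low counts, and no point lies right of it in any other row; Mcam and Cd34 lie left of it in each.

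Some exons overlap antisense genes. This held for 2.03% of the exon length of Cd34, 0.507% of that of Mcam and 0.506% of that of Kcne3, and for 0 bases of the other 5 genes, and since no source says that strand was used in counting, reads from both partners cannot be told apart there. With 2 libraries against 2, an exact two-sided permutation test of a single value cannot go below p = 0.333, so none is given. Neither labels nor methods say whether the libraries came from separate mice, and p-values then measure the spread between libraries, which may be technical.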

How the data were processed

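RNA of sorted ECs was made into QuantSeq libraries, and the authors deposited raw counts per gene symbol, 1 table per library, with whole numbers for 23282 entries. The study's methods name TopHat for mapping and cufflinks for abundance, and the submitters' processing notes list Bowtie2, edgeR and the build mm10. The counting tool, annotation, strand setting and use of molecular identifiers are not given in the sources used here. Groups and replicate numbers came from the sample titles. Counts were tested with edgeR 4.0.16 in R 4.3.3 (quasi-likelihood test, TMM scaling, filterByExpr, tissue as the only term, Benjamini-Hochberg adjustment over all 9347 genes tested, two-sided, threshold 0.05). Cufflinks needs alignments, so edgeR stands in for it. Log2 fold changes set dura mater against brain (prior count 2), and the SE is their size over the square root of F. CPM is scaled by the TMM-adjusted library size. Intervals are exact 95% intervals (Poisson for a level, binomial for a ratio) and, like the floor of 3 counts, cover counting error only. Replicates differed beyond sampling noise (chi-square over its degrees of freedom was 466 for brain and 257 for dura mater), so each counted as 1 sample. Alternatives were DESeq2 1.42.0, limma-voom (limma 3.58.1), the newer edgeR dispersion estimate, 4 other scalings, other filters, a prior count of 0.5, thinning to 13518973 counts, a replicate block and each library left out. DESeq2 on all entries with a count was added after seeing the data. Scripts were tested on simulated data. Positions are from GENCODE M21 (GRCm38, the sequence of mm10), by symbol for all 8 genes.

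The genes named are the 8, the members of the lists of genes that act with them (some genes that the rule names are not reported here), from each other list up to 4 genes past the threshold or else the 2 most counted, and the 2 genes nearest to each of the 8 in level. The members and the 18 lists were chosen with earlier results of these data known. Some genes stand on 2 lists (Nrp1, Kdr, Lama4, Tie1, Robo4, Emcn, Flt4 and Vwf).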

Additional observations from a re-analysis of the deposited data

How the results depend on the processing

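Over the 17 alternatives, the log2 fold changes of Esm1, Aplnr, Cxcr4, Plaur and Mcam were positive in each that tested them, with lowest values of 8.72, 7.23, 7.03, 6.10 and 1.36 and highest values of 12.63, 10.63, 9.57, 9.39 and 3.16. The number of the 8 genes past the threshold was 0 in edgeR, 4 in DESeq2, 4 in DESeq2 on all entries with a count (chosen after seeing the data) and 1, Esm1 (log2 fold change 9.33), without a filter on low counts. In DESeq2 and in DESeq2 on all entries the log2 fold changes were 12.63 and 12.61 for Esm1, 10.63 and 10.61 for Aplnr, 9.57 and 9.56 for Cxcr4 and 9.39 and 9.36 for Plaur. The sign of Cd34 turned with upper-quartile scaling (0.074) and pan-endothelial scaling (0.12), and leaving out 1 library moved it from −0.23 to 0.12 (positive without brain replicate 2). The cause was not tested. At least 10 counts in every library leaves Cd34 and Mcam as the only 2 of the 8 that can be tested.

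Genes differing over the whole table were 57 in edgeR, 810 in DESeq2, 1257 in DESeq2 on all entries, 306 with the newer dispersion estimate, 326 without a filter, 141 with at least 10 counts in every library, and 0 to 54 with 1 library left out (0 without brain replicate 1, 5 without brain replicate 2, 30 without dura mater replicate 1). Of the genes on the context lists, 19 differed in edgeR, 44 in DESeq2, 44 in DESeq2 on all entries, 33 with the newer dispersion estimate, 32 without a filter and 0 to 11 with 1 library left out. Leaving out a library leaves a tissue with 1, which is then assumed to vary like the other tissue. With a replicate block edgeR called 224 genes, 30 of those on the lists and 0 of the 8. Equally numbered libraries did not deviate from their tissue means in the same way (across genes, correlation −0.0153), and no label states that numbers mark a pairing. At these depths 0 counts in a library allow a level of up to about 0.184 to 0.227 CPM, by counting error alone.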
